A study of Mus musculus with 7 samples.

Results

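The genes described here are 10 fast-responding transcription factor genes of medullary thymic epithelial cells (mTECs): the Fos family (Fos, Fosb, Fosl1, Fosl2), the Jun family (Jun, Junb, Jund), the related factor Atf3, and Egr1 and Ier2. They were chosen by symbol, and 10 of the 55536 genes in the deposited table matched. All 10 averaged 5 or more normalized counts per library, the filter for testing, which 22878 genes passed. RNA was measured by sequencing in EPCAM-positive mTECs sorted fresh from mouse thymus into a SMART-seq lysis buffer. All mice carried floxed Ikzf1 on both alleles, so that Cre can remove part of this gene of the transcription factor Ikaros. All were also null for Pou2f3 (Pou2f3-/-), the factor that tuft cells need. The 4 Cre-negative libraries (Cre(-) Ikzf1fl/fl Pou2f3-/-, label numbers 46, 48, 75 and 77) keep Ikzf1 as floxed alleles. The 3 Cre-positive libraries (Cre(+), the same alleles, label numbers 45, 76 and 80) are those in which Cre can act. The comparison asks how the Cre genotype relates to mTEC expression in mice null for Pou2f3. The sources used here do not give the Cre driver, the floxed exons, or the age and sex of the mice. The labels do not say that each number is a separate mouse, so the p-values reflect how far these libraries vary, and part of that may be technical.

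Fos and Jun proteins are basic leucine zipper (bZIP) factors that pair to form AP-1, a complex that binds DNA at the motif TGANTCA. Jun proteins can pair with each other, while Fos proteins need a Jun or another partner. Most of these genes are immediate early genes: growth factor, stress and calcium signals switch on their transcription through kinases, SRF and CREB without new protein synthesis, and their RNA is short-lived. Enzymatic dissociation and sorting of tissue are also known to raise them. In epithelia, AP-1 is known for its roles in wound response, proliferation and keratinocyte differentiation.

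The labelled cell type was checked by its markers, and recovered totals ran from 9815958 to 12599078 reads per library. Epcam, the sort marker, had 3882.7 to 5098.5 normalized counts in the Cre-negative group and 5597.9 to 6771.2 in the Cre-positive group. Of the 12 mTEC markers, Ccl21a alone was at 0 in all libraries. Aire, the regulator of peripheral antigen expression in mTECs, had a mean of 4417 ± 767 (SD, n = 4) against 2967 ± 308 (SD, n = 3) normalized counts and fell (log2 fold change -0.56, limma adjusted p = 0.0395). Of the other mTEC markers, limma called Cd80 (-1.87), Cldn4 (-1.56) and Foxn1 (-1.02) lower and Krt14 (1.51) and Krt5 (0.59) higher. Among all tested genes, 9.11% were called lower and 4.66% higher. Ikzf1 had 1118.7 to 1219.0 normalized counts in the Cre-negative group and 1310.3 to 1828.6 in the Cre-positive group. A count over the whole gene includes exons that Cre may leave in place, so it does not check the deletion. Pou2f3 had 1.8 to 27.9 normalized counts in the Cre-negative group and 0 to 17.8 in the Cre-positive group. A list of 6 tuft cell markers summed to 311.3 to 518.8 in the Cre-negative group and 349.1 to 618.9 in the Cre-positive group, most of it Dclk1.

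Sequence upstream of the genes is shown because RNA of several of these genes is known to be set by short promoter elements. Of the 10 genes, 7 were found in the RefSeq promoter table (GRCm38.p6). Egr1, Ier2 and Fosl1 were not in it and were not searched. The 150 bases before the RefSeq start site are printed for the 5 genes that held a match to a searched AP-1 or CREB element, 5′ to 3′ on the gene's strand. Capitals mark TGACNTCA or TGACG on either strand.
Fos (chr12:85473740-85473889, plus strand): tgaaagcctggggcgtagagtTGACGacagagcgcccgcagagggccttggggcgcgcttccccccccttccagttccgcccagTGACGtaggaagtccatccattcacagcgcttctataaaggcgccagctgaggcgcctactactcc
Fosb (chr7:19310046-19310195, minus strand): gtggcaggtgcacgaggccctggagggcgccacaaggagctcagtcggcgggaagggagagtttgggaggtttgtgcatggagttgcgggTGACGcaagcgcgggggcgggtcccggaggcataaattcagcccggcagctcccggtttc
Jun (chr4:95052223-95052372, minus strand): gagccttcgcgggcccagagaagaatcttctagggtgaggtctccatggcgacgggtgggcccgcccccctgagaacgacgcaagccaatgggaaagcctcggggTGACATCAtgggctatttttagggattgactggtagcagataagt
Junb (chr8:84978749-84978898, minus strand): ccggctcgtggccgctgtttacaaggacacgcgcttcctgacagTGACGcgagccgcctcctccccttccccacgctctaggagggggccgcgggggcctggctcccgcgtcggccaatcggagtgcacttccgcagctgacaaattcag
Atf3 (chr1:191183334-191183483, minus strand): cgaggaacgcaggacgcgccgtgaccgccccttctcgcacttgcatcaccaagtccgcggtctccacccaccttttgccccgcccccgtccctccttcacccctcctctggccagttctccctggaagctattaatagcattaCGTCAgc
Of these stretches, 7 bases of the Atf3 one and 6 of the Fosb one lie in a GENCODE M21 exon.

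The 250 bases before each RefSeq start were searched on both strands. Only for Fos and Jun does this start match the end of the gene as deposited. The Fosb window, from 19310046, begins inside the gene, which ends at 19310051. The Junb window, from 84978749, begins beyond the gene's end at 84978718. All 250 bases of the Fosl2 window lie in a GENCODE M21 exon. The Jund window ends at 70697738, before the gene's start at 70698949. The Atf3 window, from 191183334, lies inside the gene (191170296-191218039). Other start sites of these genes, and bases farther upstream, were not searched, so a motif without a match may lie there. TGACNTCA, an 8-base element bound by CREB/ATF proteins and by Jun with ATF2, was found in Jun only (TGACATCA at positions -45 to -38 from the start) and is present in 7.49% of the 32851 RefSeq promoters. TGACG, the core of the CREB element, which is also part of some TGACNTCA matches, was found in 4 of 7: Fos at -129 to -125 and -66 to -62, Fosb at -60 to -56, Junb at -106 to -102 and Atf3 at -7 to -3 on the opposite strand. It is present in 17.8% of promoters. The AP-1 motif TGANTCA had no match among the 7, against 6.75% of promoters, and the CArG box, the SRF element, had none against 1.47%. These are letters in a fixed window and describe no binding.

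In the main limma fit, only Atf3 of the 10 genes was called, higher in Cre-positive mTECs. A gene without a call may still differ. Limma called 12 of 100 simulated 2-fold changes, but the simulation held no other changed genes, so this share need not hold for the members. For Fosb, Fosl2, Jun, Junb, Jund, Egr1 and Ier2, the limma intervals given below stay within a 2-fold change in either direction. They leave room for smaller changes, and the intervals of Fos and Fosl1 reach beyond 2-fold. Limma called 1 of 10 higher, where 4.66% of tested genes were called higher, and none lower, where 9.11% were called lower. EdgeR, DESeq2 and limma-voom, which called 5.06%, 6.76% and 5.6% of genes higher, also called Atf3 higher and no other member. They called no member lower, where they called 8.68%, 12.7% and 6.76% of genes lower, and in none of the 4 was a member lower at an unadjusted p under 0.05. Log2 fold changes, here always Cre-positive minus Cre-negative on log2(normalized count + 1), were above 0 for 6 and below 0 for 4 genes. Their median was 0.19, beside -0.10 over all tested genes, of which 45.3% were above 0. No member had groups that did not overlap, while 25.3% of tested genes had such groups. In bulk samples, fewer cells of a type and less RNA per cell cannot be told apart.

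**Figure D1:**
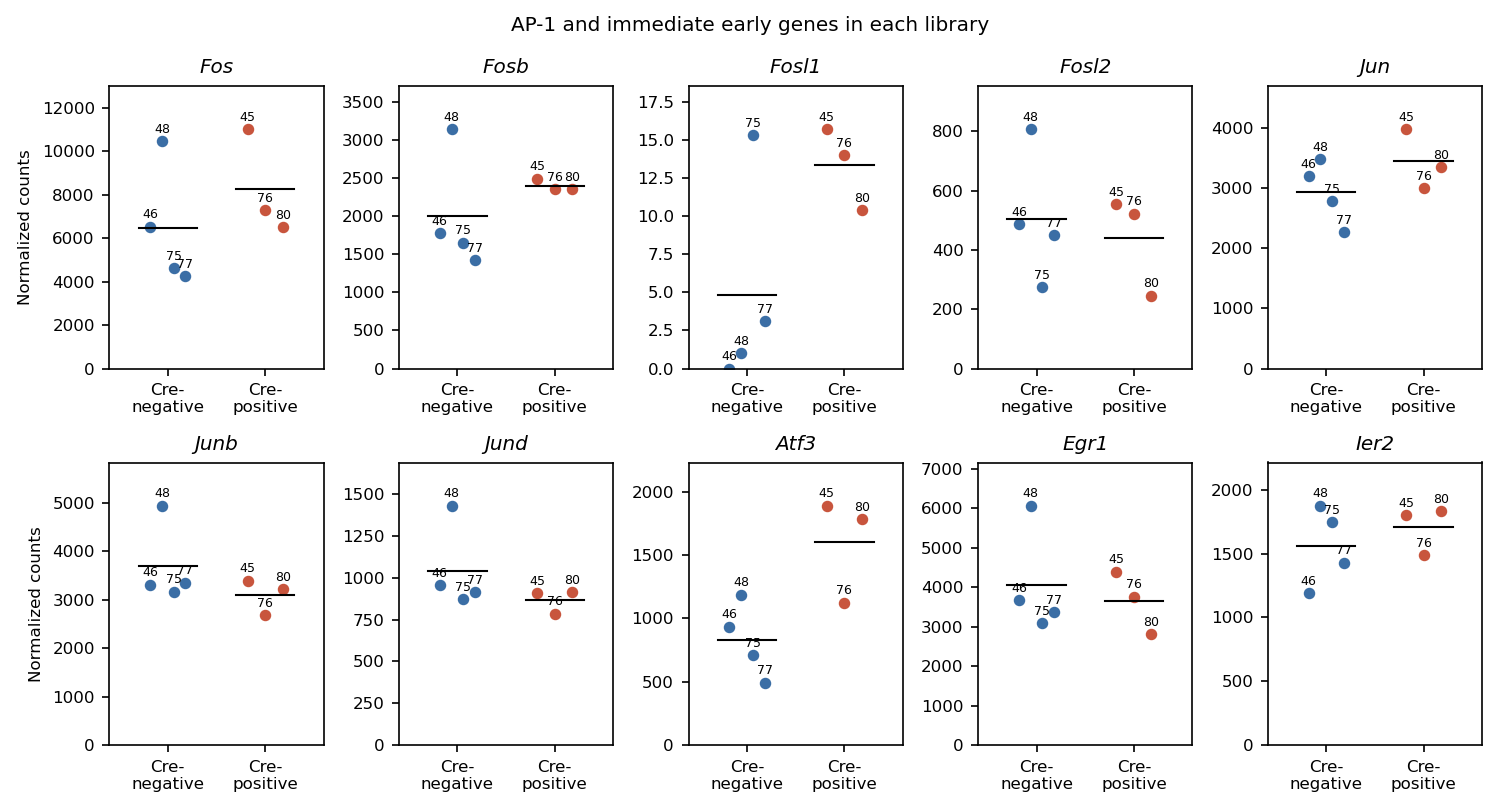
Normalized counts of the 10 genes in each library, on linear axes from 0, 1 panel per gene. Points are libraries with their label numbers (blue Cre-negative, red Cre-positive) and lines are group means. For Fosb, Fosl2, Junb, Jund, Egr1 and Ier2, Cre-negative 48 sits above every other library. For Atf3 the Cre-positive libraries lie between 1122.6 and 1890.3 and the Cre-negative ones between 493.2 and 1187.9.

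These RNAs were abundant, with Fosl1 the exception. Per kilobase of exon, the order in Cre-negative libraries was Fos (2746 normalized counts per kb), Junb (1605), Ier2 (1025), Jun (918.7), Egr1 (903.3), Jund (625.4), Atf3 (386.1), Fosb (320.2), Fosl2 (52.1) and Fosl1 (2.39). In Cre-positive libraries the order was the same, except that Atf3 (742.4 per kb) stood above Jund (520.9). In Cre-negative libraries, the neighbouring pairs Fos and Junb, Ier2 and Jun, Jun and Egr1, Egr1 and Jund, and Atf3 and Fosb differed by less than the larger of their SDs. In Cre-positive libraries, Ier2 and Jun, and Egr1 and Atf3, did so. Together the 10 genes took 0.177% to 0.345% of reads in Cre-negative and 0.191% to 0.256% in Cre-positive libraries.

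Fos, the founding partner of Jun in AP-1 (ENSMUSG00000021250, chr12:85473890-85477273, plus strand), had 6519.8, 10446.9, 4606.0 and 4259.6 normalized counts in the Cre-negative libraries (in the order 46, 48, 75, 77), against 11011.5, 7297.3 and 6515.8 in the Cre-positive ones (45, 76, 80); later lists keep this order. The groups overlapped: Cre-negative 48 was close to the highest Cre-positive library, and Cre-negative 46 level with the lowest. The means were 6458 ± 2839 (SD, n = 4) and 8275 ± 2402 (SD, n = 3), and the log2 fold change of 0.41 (SE 0.28, 95% interval -0.19 to 1.02) was not called (limma adjusted p = 0.361).

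Fosb, a close relative of Fos (ENSMUSG00000003545, chr7:19302696-19310051, minus strand), had 1776.6, 3141.2, 1652.2 and 1425.7 normalized counts in the Cre-negative libraries. The Cre-positive libraries lay close together at 2489.0, 2354.3 and 2350.1, above all Cre-negative libraries except 48. The log2 fold change was 0.33 (95% interval -0.17 to 0.83, limma adjusted p = 0.381). Without Cre-negative 48 it was 0.57, and Fosb was then called (limma adjusted p = 0.0335).

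Fosl1 and Fosl2 encode Fra-1 and Fra-2, Fos relatives that lack the strong activation domain of Fos. Fosl1 (ENSMUSG00000024912, chr19:5447703-5455945, plus strand) had 0, 1, 17 and 3 reads in the Cre-negative libraries and 15, 14 and 10 in the Cre-positive ones. All 3 Cre-positive libraries thus held reads, while Cre-negative 75, at 15.3 normalized counts, was close to the highest of them, at 15.7. The 0 in Cre-negative 46 allows up to 3 reads, or 2.51 normalized counts, for counting error only. The log2 fold change of 2.06 (95% interval -0.18 to 4.30) was not called (limma adjusted p = 0.213). By DESeq2 it was 1.46, also not called. Fosl1 overlaps Ccdc85b on the other strand, and no source used here states whether counting used strand. Fosl2 (ENSMUSG00000029135, chr5:32135801-32157842, plus strand) had 274.8 to 807.7 normalized counts in the Cre-negative group and 246.0 to 553.8 in the Cre-positive group. Its log2 fold change was -0.18 (95% interval -0.95 to 0.59, limma adjusted p = 0.791), and its sign turned without Cre-negative 48 (0.082) or without Cre-positive 80 (0.20).

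In the Jun family, Jun itself, the main activating partner (ENSMUSG00000052684, chr4:95049034-95052222, minus strand), had 3199.5, 3480.0, 2777.3 and 2262.1 normalized counts in the Cre-negative group and 3977.0, 2992.2 and 3348.7 in the Cre-positive group. Cre-positive 45 was the highest of all, and the other Cre-positive libraries lay within the Cre-negative range. The log2 fold change was 0.24 (95% interval -0.15 to 0.63, limma adjusted p = 0.413). Jun overlaps the antisense transcript Junos, from which unstranded counts could not tell it.

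Junb and Jund, which on many promoters are weaker activators than Jun, lay slightly lower in Cre-positive libraries without being called. Junb (ENSMUSG00000052837, chr8:84974484-84978718, minus strand) had 3311.0, 4942.7, 3166.5 and 3355.0 normalized counts in the Cre-negative group and 3391.9, 2678.8 and 3213.8 in the Cre-positive group, a log2 fold change of -0.24 (95% interval -0.63 to 0.15, limma adjusted p = 0.425). Jund (ENSMUSG00000071076, chr8:70698949-70700616, plus strand) had 954.5, 1432.2, 871.1 and 915.0 against 908.0, 786.1 and 912.4, also -0.24 (95% interval -0.67 to 0.20, limma adjusted p = 0.485). In both, Cre-negative 48 stood above the other 6 libraries, which overlapped across genotypes. Junb overlaps Prdx2 and Jund overlaps Gm11175, each on the other strand.

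Atf3, a stress-induced bZIP factor that pairs with Jun proteins and can repress as a homodimer (ENSMUSG00000026628, chr1:191170296-191218039, minus strand), was the called gene. It had 934.4, 1187.9, 710.8 and 493.2 normalized counts in the Cre-negative group and 1890.3, 1122.6 and 1784.4 in the Cre-positive group. Cre-positive 45 and 80 stood above all Cre-negative libraries, while Cre-positive 76 lay below Cre-negative 48. The means were 831.6 ± 298 (SD, n = 4) and 1599 ± 416 (SD, n = 3), or 0.98 on the log2 scale (SE 0.28, 95% interval 0.37 to 1.59, limma adjusted p = 0.0360). In the authors' deposited table Atf3 had a log2 fold change of 0.94 with an adjusted p of 0.0186, the sign turned here to Cre-positive minus Cre-negative. That table gives an adjusted p for 6 of the 10 members, and Atf3 was the only member it called.

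The call of Atf3 was close to the threshold. Over the 25 alternative fits with a p, it was called in 19, with limma, edgeR, DESeq2 or voom adjusted p from 0.00641 to 0.125 and a log2 fold change always above 0. The 25 include fits with the label number range that were added after seeing the data, and these all called Atf3. All 6 lost calls thus fell among the 17 planned fits. With limma, it was lost without Cre-negative 46 (adjusted p = 0.0571), 75 (0.0749) or 77 (0.0841), and without Cre-positive 45 (0.125) or 80 (0.108). Scaling by library totals moved the median of all genes from -0.10 to -0.29, and Atf3 was then at 0.78 and not called (limma adjusted p = 0.0862), where 2.55% of genes were called higher. Relative to the median of all genes, it stood at 1.08 with the deposited scaling and at 1.07 with library totals. Atf3 overlaps Gm24748 on the other strand.

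Egr1, a zinc finger factor of the same early response (ENSMUSG00000038418, chr18:34859823-34864984, plus strand), had 3678.0, 6065.6, 3084.5 and 3373.6 normalized counts in the Cre-negative group and 4394.0, 3757.3 and 2803.8 in the Cre-positive group. Both groups covered much of the same range. The log2 fold change was -0.12 (95% interval -0.62 to 0.38, limma adjusted p = 0.780), and it was 0.091 without Cre-negative 48. Ier2, a small nuclear protein of the early response (ENSMUSG00000053560, chr8:84661331-84662852, minus strand), had 1191.7 to 1875.4 in Cre-negative and 1486.1 to 1834.2 in Cre-positive libraries. Its log2 fold change was 0.15 (95% interval -0.26 to 0.55, limma adjusted p = 0.662), and -0.058 with library totals as the scaling.

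**Figure D2:**
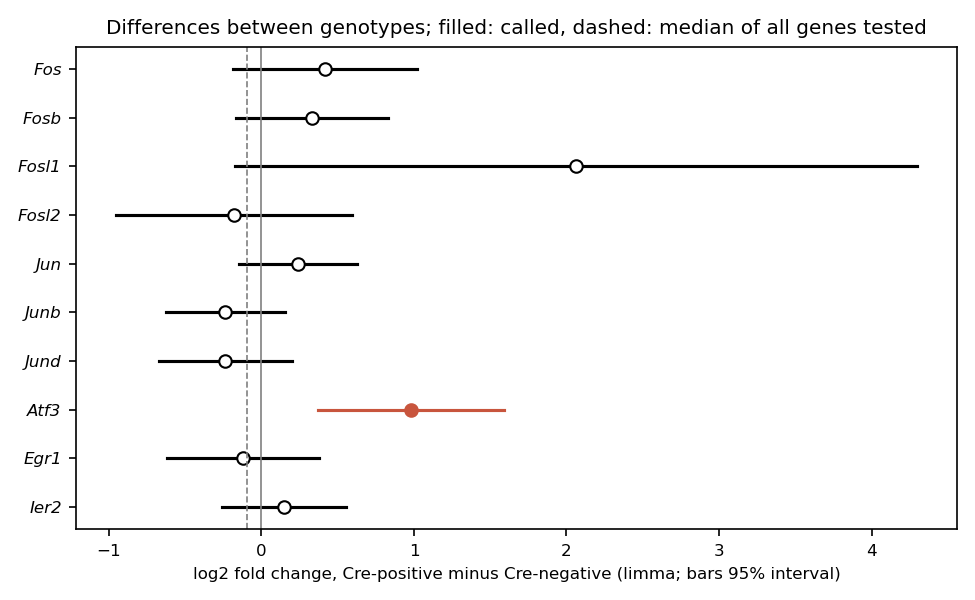
Log2 fold change of each gene (Cre-positive minus Cre-negative, on the log2(normalized count + 1) scale) with its 95% interval from limma; the filled red point is the called gene and the dashed line the median of all tested genes, -0.10. Only the interval of Atf3, 0.37 to 1.59, lies above 0, and that of Fosl1, -0.18 to 4.30, is the widest.

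Cre-negative 48 was the library in which these genes stood highest within its group. It was the highest of the 4 Cre-negative libraries for 9 of the 10 genes, and for 25.5% of all tested genes. This was not particular to the members. Of the lists described below, it was also highest for 18 of 30 other immediate early genes and 14 of 24 upstream signalling genes. It was highest for 10 of 21 feedback inhibitors, 8 of 20 other bZIP genes and 5 of 23 known AP-1 targets. Relative to the mean of the other 3, it was at 2.04-fold for Fos, 2.0-fold for Fosl2, 1.94-fold for Fosb and 1.80-fold for Egr1. The ratios were 1.67 for Atf3, 1.57 for Jund, 1.51 for Junb, 1.29 for Ier2 and 1.27 for Jun, and 0.163 for Fosl1. Cre-positive 45 was the highest of its group for 8 of 10 genes, against 31.5% of all tested genes. Cre-negative 48 was also the only library with more than a trace of Y-linked RNA: 4 Y-linked genes summed to 3938 normalized counts there, and to at most 1 in any other library. By this measure it alone held RNA of male cells, so sex was not balanced between the groups. Sex cannot be told apart from other traits of that library. Without Cre-negative 48, limma called 2 members higher, Atf3 and Fosb, where 3.34% of genes were called higher.

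**Figure D3:**
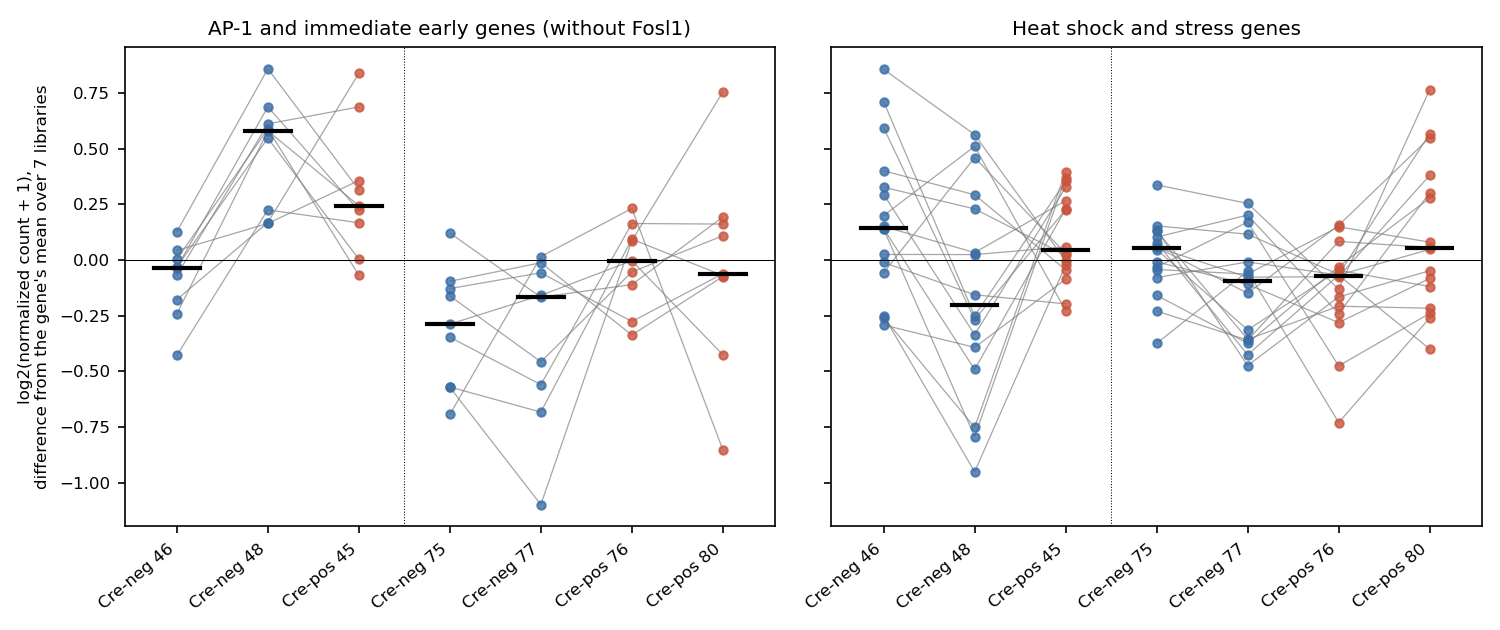
Difference of each gene's log2(normalized count + 1) from its mean over the 7 libraries, for the members without Fosl1 (left) and the 16 heat shock and stress genes (right). Points are genes, joined by lines within a range of label numbers, the dotted line parts the ranges, and bars are medians; all 9 members plotted are highest in Cre-negative 48 among the Cre-negative libraries.

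The label numbers fall into a low range (45, 46 and 48) and a high range (75, 76, 77 and 80), and no source used here says what they stand for. Within the low range, Cre-positive 45 against Cre-negative 46 and 48, the log2 difference was 0.42 for Fos, 0.25 for Jun and 0.84 for Atf3. Within the high range, Cre-positive 76 and 80 against Cre-negative 75 and 77, it was 0.64 for Fos, 0.34 for Jun and 1.26 for Atf3. These 3 genes had every Cre-positive library above every Cre-negative library in both ranges, as did 14.3% of tested genes. The low range holds 1 Cre-positive library, so it has no replicate check. With the range as a term, limma called Fos (log2 fold change 0.55, adjusted p = 0.0477) and Atf3 (1.09, adjusted p = 0.00641), where 4.95% of genes were called higher. By edgeR with the same term, Fos had an adjusted p of 0.069, so its call depends on the tool. With limma and the range term it was called without Cre-negative 48 (adjusted p = 0.0057), and not when any other library was left out (adjusted p from 0.0853 to 0.165).

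Across the 7 libraries, the level of Fos ran with those of Fosb (Pearson r = 0.90), Jun (0.90), Atf3 (0.79) and Egr1 (0.76), and less with Fosl2 (0.64), Jund (0.47), Junb (0.45), Ier2 (0.40) or Fosl1 (-0.031). Jun ran closest to Atf3 (0.92) and was far from Jund (0.30), Junb (0.29), Fosl2 (0.28) and Fosl1 (0.079). Among 10145 other genes averaging 100 or more normalized counts, those most like Fos were Mgat3 (0.98), Zfp36l1 (0.96), Bmp3 (0.96), Appl2 (0.95) and Nufip2 (0.95). Those most like Jun were Vnn1, Sesn3, Zwint, Rap1a and Cblb, at 0.97 to 0.95. These points share depth and library preparation, the highest correlations are picked from many genes, and they are given as a description.

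The other bZIP genes tested, which pair with AP-1 proteins or with each other, include the ATF, CREB, BATF and MAF families. Of 20, 1 rose and none fell, where 4.66% of all tested genes rose and 9.11% fell, with a median log2 fold change of -0.071. At an unadjusted p under 0.05, limma had 1 lower, and Cebpb was called lower by DESeq2 and, with library totals as the scaling, by limma. The gene that rose was Maf, a large MAF factor, with 1143.1, 1028.3, 1360.3 and 1224.1 normalized counts in the Cre-negative group and 2211.1, 2767.9 and 2480.9 in the Cre-positive group. The groups did not overlap, and the log2 fold change was 1.07 (limma adjusted p = 0.00132). Maf overlaps Gm15655 on the other strand.

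Of 30 other immediate early genes tested, 2 rose and 2 fell, near the 4.66% and 9.11% of all tested genes that did so, with a median log2 fold change of -0.16. With library totals as the scaling, 1 rose and 4 fell. Ier5, a nuclear protein of the serum and heat response, had 3376.4, 4363.5, 2661.1 and 2687.1 normalized counts in the Cre-negative group against 1740.9, 1856.6 and 1405.5 in the Cre-positive group, and fell by 0.95 on the log2 scale (limma adjusted p = 0.00690). Csrnp1, a nuclear protein inducible by AXIN1, fell from 611.3 ± 171 (SD, n = 4) to 305.8 ± 49.2 (SD, n = 3), or -0.97 on the log2 scale (limma adjusted p = 0.0200). Nr4a2, an orphan nuclear receptor, rose from 138.1 ± 45.8 (SD, n = 4) to 315.9 ± 36.3 (SD, n = 3), or 1.26 (limma adjusted p = 0.0226). Klf10, a zinc finger factor induced by TGF-beta, rose from 390.1 ± 27.8 (SD, n = 4) to 655.0 ± 161 (SD, n = 3), or 0.72 (limma adjusted p = 0.0436). None of the 4, named because they were called on these values, had overlapping groups. Of the 30 genes, 13 had groups that did not overlap, beside 25.3% of all tested genes. Csrnp1 lost its call when Cre-negative 46, Cre-positive 76 or Cre-positive 80 was left out, and Nr4a2 when Cre-positive 76 or 80 was. Klf10 lost its call when any library but Cre-positive 80 was left out. Csrnp1 overlaps Cx3cr1, a gene of macrophages, on the genome.

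Of 21 feedback inhibitors of the pathway tested, 4 fell and none rose, where 9.11% of all tested genes fell and 4.66% rose, with a median log2 fold change of -0.29. At an unadjusted p under 0.05, none was higher by limma, edgeR, DESeq2 or voom, while limma had 1 higher with the range term and 2 higher without Cre-negative 48. Spry2, which dampens receptor tyrosine kinase signalling to ERK, had 1038.3, 994.8, 1126.1 and 958.4 normalized counts in the Cre-negative group and 452.5, 470.7 and 376.8 in the Cre-positive group. It fell by 1.25 on the log2 scale (limma adjusted p = 0.000807) and was called in all 17 alternative fits. Its relative Spry4 had 72.9, 15.8, 38.7 and 47.6 against 1.0, 6.0 and 2.1, and fell by 3.48 (limma adjusted p = 0.0115). The ERK phosphatase Dusp5 fell from 208.8 ± 77.3 (SD, n = 4) to 80.4 ± 25.6 (SD, n = 3), or -1.36 (limma adjusted p = 0.0258). Dusp2, another MAP kinase phosphatase, had 155.0, 197.0, 124.3 and 105.5 against 100.3, 41.1 and 14.5, and fell by 1.82 (limma adjusted p = 0.0428). Groups did not overlap in these 4, named because they were called on the same values. They were the 4 of the 21 without overlap, beside 25.3% of all tested genes. Without Cre-negative 48, Spry2 and Spry4 alone were called. Dusp5 also lost its call when Cre-negative 46 or Cre-positive 80 was left out. Dusp2 lost it when any library but Cre-positive 45 was left out, and it was at -2.48 without that library and at -1.13 without Cre-positive 80. Spry4 was not called by voom, nor Dusp2 by edgeR. Dusp1, a phosphatase of the early response itself, was at 0.041 (95% interval -0.53 to 0.61), and Zfp36, which speeds decay of early response RNAs, at -0.61 (95% interval -1.06 to -0.15, limma adjusted p = 0.0760). These last 2 genes were picked after their values were seen.

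**Figure D4:**
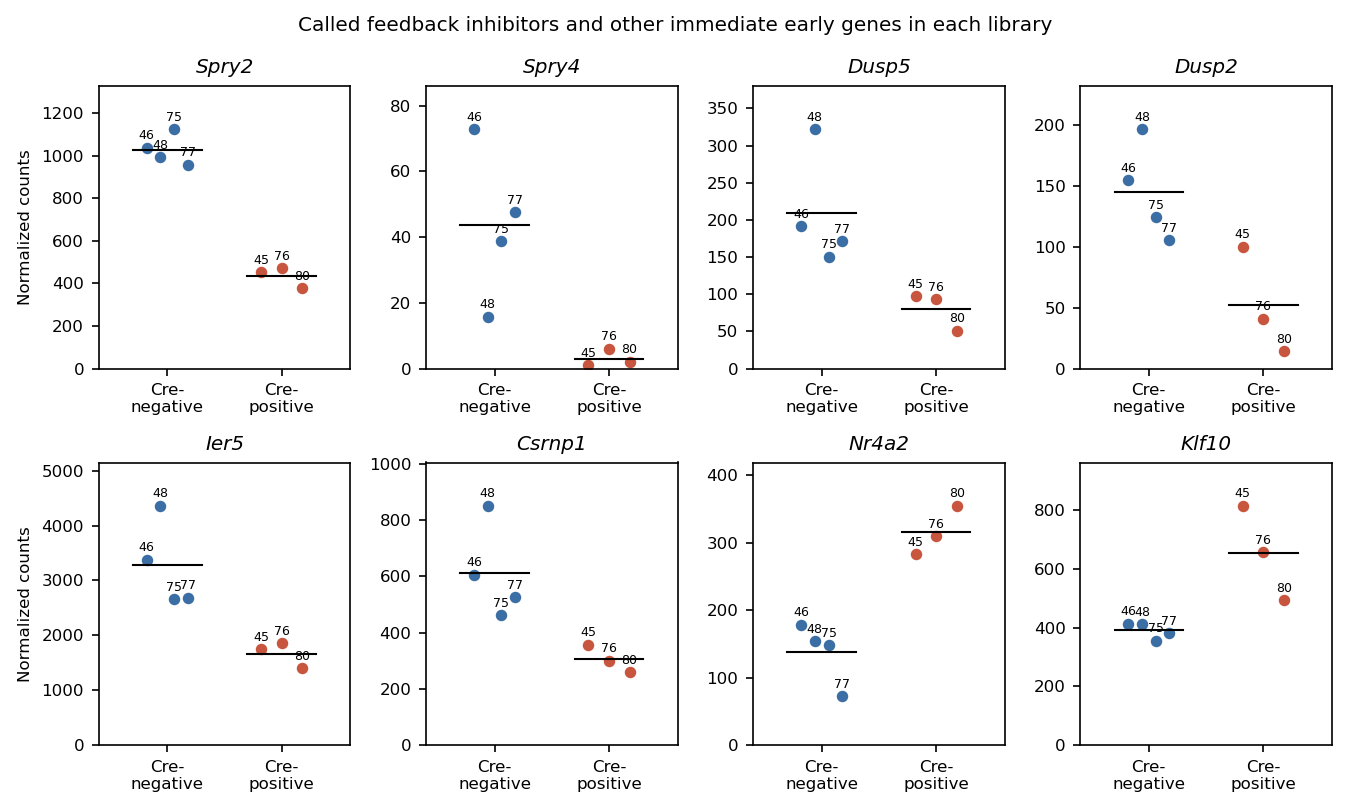
Normalized counts of the called feedback inhibitors (top) and called other immediate early genes (bottom) in each library, on linear axes from 0, with points for libraries, label numbers beside them and lines for group means. The genes were picked by their calls on these values, so separation of the groups is no added support. In all 8 panels every Cre-positive library lies on 1 side of every Cre-negative one, as in 25.3% of all tested genes. Spry2 runs from 958.4 to 1126.1 against 376.8 to 470.7.

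Upstream kinases and SRF cofactors were not called. Of 24 tested genes of the EGFR, RAS, RAF and MAP kinase cascade and of SRF with its partners, limma called none. Among all tested genes, 4.66% were called higher and 9.11% lower. Log2 fold changes of the 24 ran from -0.59 to 0.69, with a median of -0.16. At an unadjusted p under 0.05 limma had 1 higher and 1 lower, edgeR and voom called none, and DESeq2 called Egfr higher.

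Of 23 known AP-1 target genes tested, 3 rose and 6 fell, where 4.66% of all tested genes rose and 9.11% fell, with a median log2 fold change of -0.61. Without Cre-negative 48, 4 rose and 4 fell. Mmp9, a gelatinase that degrades matrix, had 559.8, 472.8, 468.4 and 667.9 normalized counts in the Cre-negative group and 6041.8, 5000.1 and 5517.2 in the Cre-positive group, and rose by 3.36 on the log2 scale (limma adjusted p = 9.12e-07). Ccnd1, the G1 cyclin D1, rose from 272.6 ± 69.0 (SD, n = 4) to 575.6 ± 54.2 (SD, n = 3), or 1.10 (limma adjusted p = 0.00889). The collagenase Mmp13 had 236.3, 51.2, 15.3 and 40.3 normalized counts in Cre-negative libraries and no read in any Cre-positive one. Against a floor of 3 reads over the Cre-positive group it was at least 83.4-fold lower, or at least 34.6-fold lower without Cre-negative 46 (limma adjusted p = 0.00180 with all libraries). Mmp10, a stromelysin, had 23.5, 33.5, 151.3 and 38.3 against 0, 7.0 and 1.0 (limma adjusted p = 0.00899, not called by voom). Ivl, involucrin of the keratinocyte envelope, had 32.7, 82.7, 55.9 and 17.6 against 0, 5.0 and 0 (limma adjusted p = 0.00601).

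Krt17 (0.90), Timp1 (-0.84), Areg (-1.84) and Il6 (-3.34) were the other called targets, named after their values were seen. Areg and Il6 were not called by edgeR or voom, nor by limma without Cre-negative 48. Il6 was also not called by DESeq2 or by limma with the range term. The keratinocyte mimetic markers, of which Ivl is one, moved beside them: 6 of 9 fell, where 9.11% of all tested genes fell. The sum of these markers was 1887 to 3170 normalized counts in the Cre-negative group and 1029 to 1599 in the Cre-positive group. Their part in the change of the targets was not tested.

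**Figure D5:**
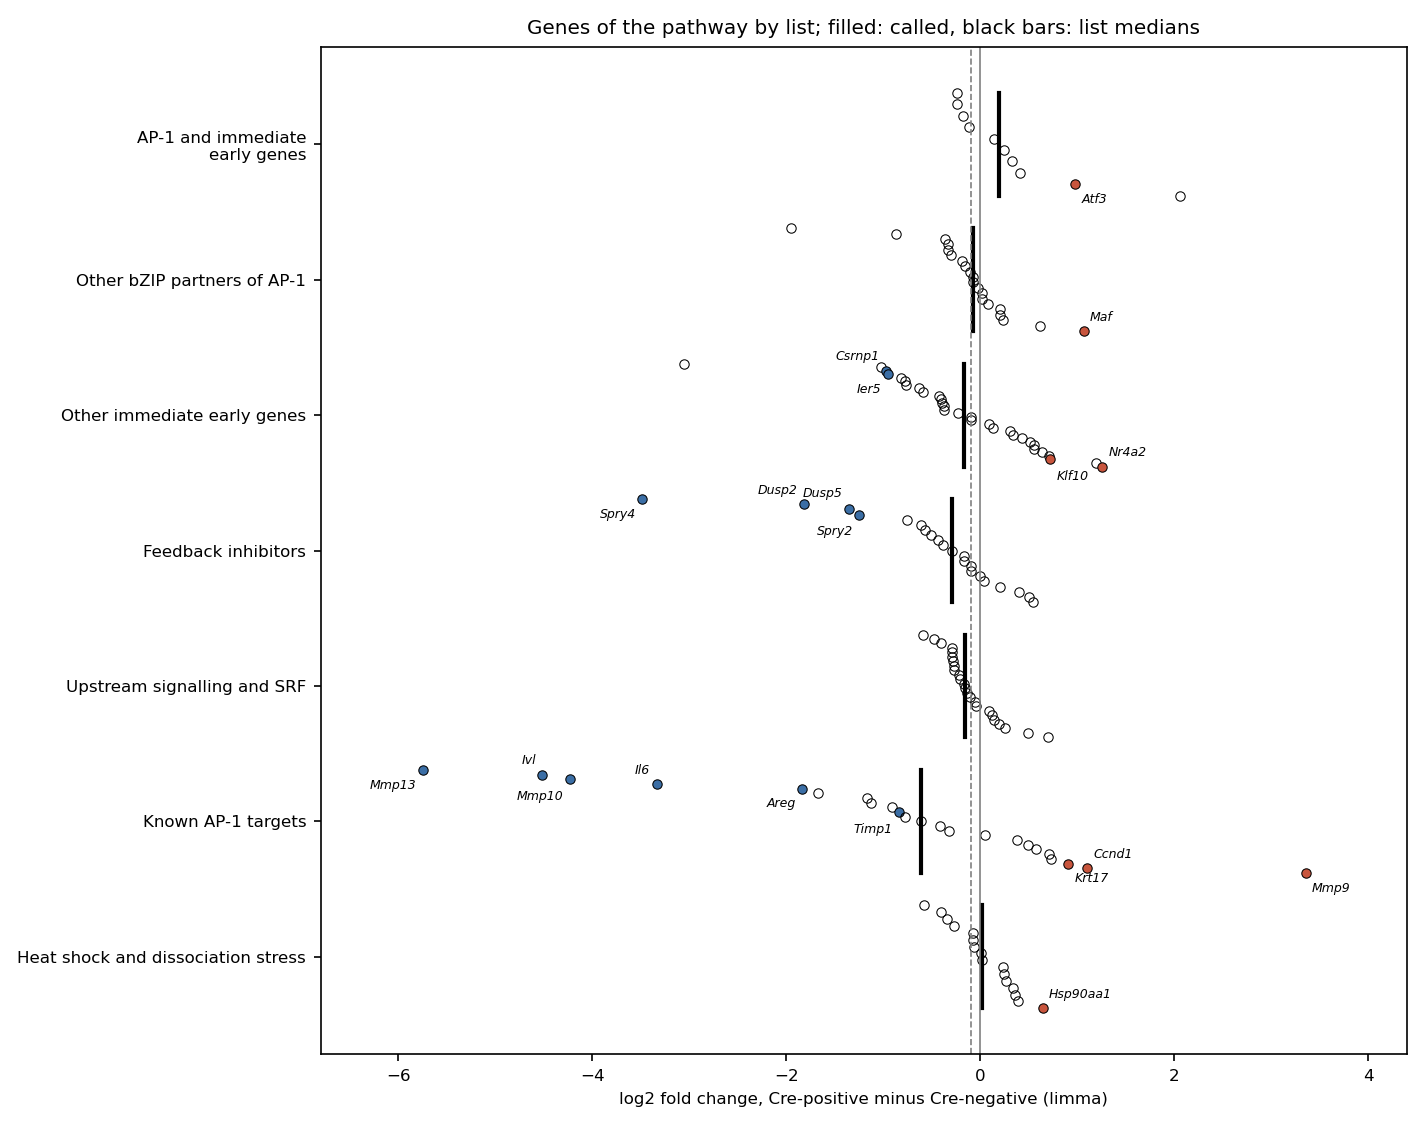
Log2 fold change (Cre-positive minus Cre-negative, limma) of every tested gene in the 10 members and in each list; filled points are called genes, black bars are list medians, and the dashed line is the median of all tested genes at -0.10. Called feedback inhibitors lie at or below -1.25, while called AP-1 targets lie on both sides of 0.

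Stress and other cells were checked with the same values. Of 16 heat shock and dissociation stress genes, limma called 1 higher, Hsp90aa1, a cytosolic chaperone, and none lower. Among all tested genes, 4.66% were called higher and 9.11% lower. The list's median was 0.015. Hsp90aa1 had 4992 ± 1105 (SD, n = 4) against 7686 ± 1039 (SD, n = 3) normalized counts, or 0.64 on the log2 scale (limma adjusted p = 0.0397). With library totals as the scaling, Hsp90aa1 was not called and Hspa5 was called lower. The call of Hsp90aa1 was also lost when Cre-negative 46, 48 or 77 or any of the Cre-positive libraries was left out. Hspa1b, a strongly heat-inducible chaperone, had 14234.5, 7307.7, 9178.7 and 6474.2 normalized counts in the Cre-negative group and 11115.0, 8292.7 and 6591.6 in the Cre-positive group, and groups overlapped. Cre-negative 48, the library highest for the members, was the lowest of its group for 6 of these 16 genes and the highest for 2. Over all tested genes it was the lowest for 29.3% and the highest for 25.5%.

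Among markers of other cells, the macrophage and dendritic cell list summed to 5335 to 7085 normalized counts in the Cre-negative group and 7467 to 11407 in the Cre-positive group. Most of that sum was Lyz2 (4491.6 to 11146.5). Of the 11 genes, limma called Lyz2 higher and 2 lower, where 4.66% of all tested genes were called higher and 9.11% lower. The 2 were the macrophage genes Adgre1 (137.9 to 402.2 against 28.0 to 56.4) and Itgam (72.9 to 99.3 against 14.5 to 19.0). The other 8, Csf1r, Cd68, Fcgr1 and Mertk among them, were not called. The cortical epithelial list summed to 5565 to 9349 and 12716 to 18800, most of the latter the protease Ctsl, which limma called higher. The other 5 of its 6 genes had log2 fold changes below 0, from -0.31 for Cxcl12 to -2.19 for Enpep, and Enpep was called lower. Summed T cell and thymocyte markers overlapped between groups, at 1482 to 2326 and 1359 to 4752, as did fibroblast markers at 1264 to 1794 and 1231 to 1668. The largest part of the fibroblast sum was Dcn, which was not called. Of the 7 fibroblast genes, limma called 3 lower and 0 higher, beside the same shares of all tested genes. The 3 were Col1a1 (log2 fold change -2.63), Col1a2 (-2.53) and Col3a1 (-3.94). What these cells add to Atf3 or the other members was not tested.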

How the data were processed

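RNA was sequenced from 4 Cre-negative and 3 Cre-positive libraries. The submitters' processing notes name STAR 2.7.9a, DESeq2 and build GRCm39; the sources used here name no counting tool and no strand setting. Gene positions in the deposited table equal GENCODE M21 (GRCm38) for 49909 of 52403 shared genes (95.2%), so positions are given on GRCm38. Per the file headers, the deposited normalized counts are a signal, gene counts divided by a size factor per library by the authors and rounded. The authors also deposited variance-stabilized log2 values, log2 fold changes and p-values. Dividing by the worth of 1 read gave whole reads for 100% of values (tolerance 0.0501), without molecular identifiers, so floors cover counting error only.

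The 22878 genes averaging 5 or more normalized counts were tested with limma 3.58.1 (R 4.3.3) with its trend option, genotype being the single term, on log2(normalized count + 1), and called at a Benjamini-Hochberg adjusted p under 0.05 over all 22878. The added count understates changes of low genes. edgeR 4.0.16 (quasi-likelihood), DESeq2 1.42.0 and limma-voom were run on recovered reads as alternatives. All were tried on simulated data. Of 100 simulated 2-fold changes, limma called 12, edgeR 12, voom 13 and DESeq2 30. Of 100 simulated 4-fold changes, they called 63, 64, 55 and 83. False calls numbered 6, 4, 4 and 67. A missing call therefore does not show that a gene is unchanged. The simulation held no other changed genes, so its shares need not hold for the real data. Members and lists were chosen with earlier results of these data known. Up to 5 called genes with the smallest adjusted p are named per list. Motif shares were counted over all RefSeq promoters, and exonic lengths come from GENCODE M21. Other alternatives were pseudocounts, the filter, scaling, terms for the label number range and for Y-linked genes, and leaving out each library. The fits with the range term by edgeR, and with the range term and a library left out, were added after seeing the data.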

Additional observations from a re-analysis of the deposited data

Results flagged for a closer look

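In 4 of the 25 named genes, the highest Cre-negative library stood far from the other 3, by Dixon's test of the gap to the nearest library. Chance alone flags about 1 in 20 such groups. Junb had 4942.7 normalized counts in Cre-negative 48, with the nearest library at 3355.0. Jund had 1432.2 in the same library, with the nearest at 954.5. Mmp10 had 151.3 in Cre-negative 75, with the nearest at 38.3, and Mmp13 had 236.3 in Cre-negative 46, with the nearest at 51.2. Without Cre-negative 46, Mmp13 had a log2 fold change of -5.03.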

How the results depend on the processing

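Among all tested genes limma called 3150, 1066 higher and 2084 lower. With a term for Y-linked genes it called 1909 (558 higher, 1351 lower), voom called 1352 lower, and library total scaling gave 583 higher and 2629 lower. The Y-linked term was 11.9 in Cre-negative 48, 0.848 to 1 in the other Cre-negative libraries and 0 in the Cre-positive ones. It therefore mostly marks Cre-negative 48, partly follows genotype, and is no check apart from leaving that library out. Leaving out each library in turn gave 1969 to 2702 calls, 590 to 1004 higher and 1309 to 1740 lower. Members called higher, 1 in the main analysis, were 0 with library total scaling, 2 with the number range term (Atf3 and Fos), 2 with the Y-linked term, and 0 to 2 with 1 library left out. Listed genes called, 19 of 134, were 11 to 17 with 1 library left out. The sign of Fosl2 turned with the Y-linked term (0.17), and leaving out 1 library moved it from -0.44 to 0.20, above 0 without Cre-negative 48 or Cre-positive 80. With the range term it was above 0 when Cre-negative 48 (0.082), Cre-negative 77 (0.10), Cre-positive 45 (0.029) or Cre-positive 80 (0.20) was left out. Egr1 turned with the Y-linked term (0.16), and leaving out 1 library moved it from -0.27 to 0.091, above 0 without the same 2 libraries. With the range term it was above 0 when Cre-negative 48 (0.091), Cre-positive 45 (0.0089) or Cre-positive 80 (0.058) was left out. Ier2 was at -0.058 with library total scaling. The cause was not tested. Fos with the range term was called without Cre-negative 48 (limma adjusted p = 0.0057), and was not called when any other library was left out. No paired analysis was possible because the groups share no label numbers. Fosl1 had 0 to 17 reads a library, so counting error is large for it.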
